A study of Mus musculus with 48 samples.

Results

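Histone genes were examined in 48 single mouse cells, as 67 genes of the histone clusters (symbols of the form Hist1h to Hist4h) and 7 histone variants (H2afz, H2afx, H2afy, H2afv, H3f3a, H3f3b and H1f0). The members were picked out of the table by symbol, not by level, and make up 74 of the 23284 gene symbols in the table. The cells came from embryonic stem cells of strain 129P2/OlaHsd that carry an inducible Mesp1, a transcription factor of nascent cardiovascular mesoderm, and were grown as embryoid bodies, which are differentiating aggregates. The gene was switched on by 500 ng/ml doxycycline, given on day 2.25 and withdrawn on day 3.25. Living cells, negative for the dead-cell stain propidium iodide, were sorted on day 4 and loaded on a Fluidigm C1 device, which isolates and processes cells one by one. The labels name neither the promoter nor the clone of the inducible line. All 48 cells form 1 group. No uninduced cells and no separate cultures are named, so the cells stand as 1 sample and no p-value was computed from them.

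Most histone mRNA of dividing cells comes from replication-dependent genes that lie in clusters and are switched on in S phase, when new DNA needs new nucleosomes. Their mRNAs usually end in a conserved stem-loop bound by SLBP and cut with the help of the U7 snRNP, and they carry no poly(A) tail. Variant histone genes lie outside the clusters, are expressed through the cell cycle and give polyadenylated mRNAs. They supply H2A.Z (H2afz, H2afv), H3.3 (H3f3a, H3f3b), H2A.X (H2afx), macroH2A (H2afy) and the linker histone H1.0 (H1f0).

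The stem-loop is printed here because it is typical of replication-dependent histone mRNAs, although a match did not fully separate clustered genes from variants. It was searched as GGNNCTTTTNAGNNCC on the strand of the annotated transcript (GENCODE M21, build GRCm38, the build also called mm10). It lay in the longest transcript of 43 of the 67 clustered genes and of 1 of the 7 variants, H2afx, which is known to make both stem-loop and polyadenylated mRNAs. Over all gene names in the annotation 0.161% had a match in some transcript. The match is in capitals, with 5 bases on each side, for 5 clustered genes that differ in its form, followed by H2afx.
Hist1h4d: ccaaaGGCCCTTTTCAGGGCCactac
Hist1h2ae: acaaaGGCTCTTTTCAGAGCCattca
Hist2h2ac: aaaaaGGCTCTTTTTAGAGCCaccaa
Hist1h4i: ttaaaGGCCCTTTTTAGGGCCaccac
Hist1h3f: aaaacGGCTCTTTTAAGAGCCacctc
H2afx: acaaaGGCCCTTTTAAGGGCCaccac
The form of Hist1h2ae was the most common, with 25 genes of the H1, H2A, H2B and H3 families, and the form of Hist1h4d was shared by 7 genes, all of the H4 family. A match describes the letters of the transcript, not a site in use.

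Values are treated as FPKM (fragments mapped to a gene, relative to transcript length and to all fragments mapped), and detection means 1 FPKM or more. The number of detected genes per cell ran from 4788 to 7010 (median 6212), and sequencing depth is unknown. The number in a cell's label moved with it: 25 cells numbered up to 48 had a median of 6506 detected genes and 23 cells with higher numbers a median of 5711. In cell 90 the values summed to 12864440 FPKM, against a median of 635173 FPKM. Without rows of short RNAs, such as microRNAs and small nucleolar RNAs, its sum was 439964 FPKM, against a median of 558357 FPKM. Cell 90 had 4878 detected genes. Of 8 early mesoderm markers, Mesp1, T, Eomes and Kdr among them, 8 were detected in at least 12 cells, against 35.8% of all symbols. Their summed level was 13.9 to 993 FPKM. Mesp1 is the gene switched on by doxycycline, so its detection is no separate mark of mesoderm. Other markers were also present: 4 of 5 of pluripotent cells (summed 1.01 to 550 FPKM) and 1 of 4 of endoderm (0 to 119.6 FPKM) were in at least 12 cells. Of neurectoderm 0 of 3 were (0 to 19.2 FPKM), and markers of endothelium and blood stayed under 1 FPKM, with Cdh5, Hbb-bh1 and Hba-x listed at 0. The part that this mixture plays in the histone values was not tested.

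Variant histone genes were detected in nearly every cell, whereas most clustered genes were seen in few. Of the 7 variants 6 reached 1 FPKM in all 48 cells, which 4.99% of all symbols did. Of the 67 clustered genes 10 (14.9%) were detected in at least 12 of the 48 cells, against 35.8% of all symbols. Another 43 clustered genes were detected in 1 to 11 cells, and 14 (20.9%) were listed at 0 in every cell, against 28.4% of all symbols. The median clustered gene was detected in 3 cells, and so was the median symbol of the whole table. The share in 12 or more cells thus lay below that of the whole table, and so did the share at 0; neither difference was tested.

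H2afz, the main H2A.Z gene, had the highest level of all members. Its values ran from 1206 FPKM to 4519 FPKM with a median of 2521 FPKM, and even its lowest cell stood above the highest value of any clustered gene. Its spread was small for single cells, with a coefficient of variation (SD over mean) of 0.27. It lies on GRCm38 chromosome 3, 137864487 to 137866922, plus strand. H2afz made up a median of 63.4% of the summed FPKM of the 7 variants. H2afv, which encodes the second H2A.Z protein, ranged from 13.8 to 149 FPKM around a median of 63.3 FPKM, so its highest cell lay far below the lowest of H2afz. Of the windows of 50 bases in the longest H2afz transcript, 30.4% were found in no other gene's transcript, and the rest were shared with 6 other genes, 4 of them processed pseudogenes. For H2afv all windows were its own.

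The pair of H3.3 genes encodes the same protein and was expressed at like levels. H3f3a (chromosome 1, 180800832 to 180813943, minus strand) had 337 FPKM in its lowest and 1533 FPKM in its highest cell, with a median of 698 FPKM. H3f3b (chromosome 11, 116021912 to 116027962, minus strand) had 242 and 1163 FPKM, with a median of 580 FPKM. The 2 ranges overlapped. The ratio of H3f3a to H3f3b had a median of 1.15 over cells and ran from 0.66 to 6.35, so either gene could lead in a given cell. H3f3a moved with the cell number (Spearman's rho = 0.36, Pearson's r = 0.40 on log2 values, n = 48 cells). Without the 2 cells whose number lay farthest from the median number, r was 0.46. Its median was 622 FPKM in cells numbered up to 48 and 757 FPKM above, while within these parts rho was 0.14 and 0.03. With the number of detected genes, which moved with the cell number, H3f3a had rho = -0.37 over all cells. The windows of H3f3a were shared in part with 41 other genes, and 69.7% of them were its own.

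H2afy, which encodes macroH2A1, lay between 15.3 and 194 FPKM around a median of 69.2 FPKM. H2afx, whose protein is phosphorylated at DNA breaks, was lower and more uneven, from 4.58 to 214 FPKM around a median of 30.8 FPKM, with a coefficient of variation of 0.88. H1f0, a linker histone often linked to slow division and differentiation, was the only variant missing from some cells. It was detected in 39 cells (81.25%, exact Clopper-Pearson 95% interval 67.4% to 91.05%, counting error only), was listed at 0 in 4 and reached 96.01 FPKM. Its median was 6.81 FPKM in cells numbered up to 48 and 17.98 FPKM above. With the cell number its rho was 0.31 (r = 0.29, n = 48 cells, r = 0.28 without the 2 farthest numbers). Within these parts rho was 0.05 and 0.24, and with the number of detected genes it was -0.32 over all cells. These 2 labels of a cell go together, and their parts were not tested.

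**Figure D1:**
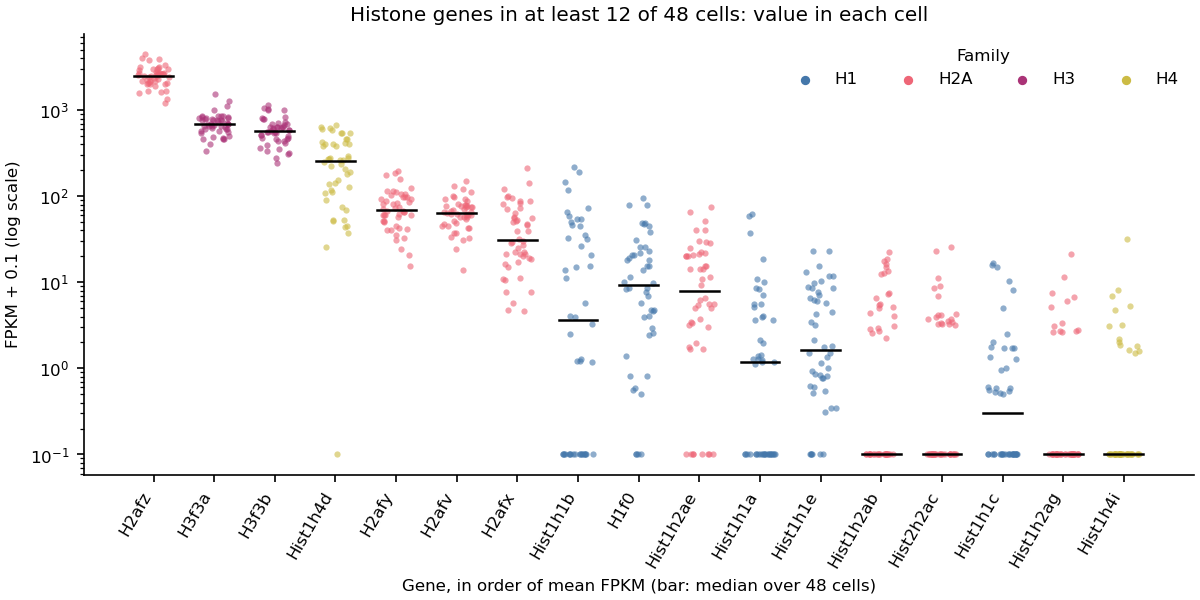
FPKM in each of 48 cells (points; logarithmic axis, with 0.1 added so that 0 can be drawn) for the 17 histone genes detected in at least 12 cells, in order of mean level and coloured by family; bars are medians. Hist1h4d is the one clustered gene among the high and nearly always detected variants, and the other clustered genes spread from 0 to at most 220 FPKM.

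Hist1h4d, 1 of the 13 clustered genes for the core histone H4, was the exception among clustered genes. It was detected in 47 of 48 cells (97.9%, interval 88.9% to 99.9%). The values lay between 0 and 678 FPKM, with a median of 258 FPKM and quartiles of 112 and 410 FPKM. The single cell at 0 was cell 90, which had 4878 detected genes. In the median cell Hist1h4d made up 77.1% of all clustered histone FPKM. The next H4 gene, Hist1h4i, was found in 14 cells, in none above 32.1 FPKM, and 42.7% of its summed FPKM came from 1 cell. A further 9 H4 genes were in 1 to 10 cells, and Hist1h4b and Hist1h4n were listed at 0.

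Hist1h4d lies on chromosome 13, 23581598 to 23582735, plus strand, and its annotated transcript of 1138 bases continues for 770 bases after the stem-loop. RefSeq gives the same gene a length of 402 bases. FPKM divides by transcript length, and the annotation used by the authors is not given, so the size of the Hist1h4d value relative to other genes depends on a length that is not known here. Of its windows of 50 bases 89.8% were its own, although H4 coding sequences are very alike.

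Of the clustered families, the linker histone genes had the highest share of genes in at least 12 cells, 4 of 6. Over all symbols this share was 35.8%. Hist1h1b was detected in 30 cells (62.5%, interval 47.4% to 76.05%), with a median of 3.51 FPKM and the highest maximum of the family, 220 FPKM. Hist1h1e was in 28 cells (median 1.54, maximum 23.1 FPKM), Hist1h1a in 26 (median 1.09, maximum 61.6 FPKM) and Hist1h1c in 14 (maximum 16.6 FPKM). Hist1h1e was listed at 0 in 6 cells, and in its other undetected cells it had values above 0 but under 1 FPKM. Hist1h1d was in 2 cells and Hist1h1t, a testis gene, was listed at 0. Cells differed in the set they held: 5 cells had none of the 6 H1 genes, 10 had 1, 14 had 2, 14 had 3 and 5 had 4. Hist1h1a and Hist1h1b were found together in 18 cells, apart in 8 and 12, and neither in 10.

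Among 18 clustered H2A genes 4 were in at least 12 cells, against 35.8% of all symbols. Hist1h2ae (chromosome 13, 23570517 to 23571220, minus strand) led with 40 cells (83.3%, interval 69.8% to 92.5%), reaching 74.3 FPKM, and its median cell had 7.88 FPKM. Hist1h2ab followed with 23 cells (maximum 22.6 FPKM), Hist2h2ac with 19 (25.8 FPKM) and Hist1h2ag with 13 (21.02 FPKM), all with a median of 0. Hist1h2ac had the largest single value of the family, 76.65 FPKM, but 86.9% of its summed FPKM came from cell 80. The H2A family also held the most genes at 0, 7 of 18, against 28.4% of all symbols. They were Hist1h2ad, Hist1h2ah, Hist1h2ao, Hist1h2ap, Hist2h2aa1, Hist2h2aa2 and Hist2h2ab.

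The H2B and H3 families had 0 of 18 and 0 of 12 genes in at least 12 cells, against 35.8% of all symbols. The part that sequence shared between genes plays in these counts was not tested. Hist1h2bc was the H2B gene in most cells, 11, with a maximum of 27.97 FPKM, followed by Hist1h2bg in 10. Hist2h2bb reached 185 FPKM, the highest H2B value, and 65.8% of its summed FPKM lay in cell 80. Hist1h2bn, Hist1h2br and the pseudogene Hist3h2bb-ps were listed at 0, and the remaining H2B genes were in 1 to 9 cells. Hist1h3e and Hist1h3f were the H3 genes in most cells, 6 each, with Hist1h3f up to 43.6 FPKM. Hist2h3c2 was listed at 0, and a median of 0 H3 genes was detected per cell. Taken as families, at least 1 H2B gene was detected in 32 cells and at least 1 H3 gene in 18. For H1 it was 43 cells, for H2A 44 and for H4 47, where Hist1h4d alone was in 47. For a gene listed at 0 in 48 cells, the limit of 3 counts is 6.25% of cells, and the exact Clopper-Pearson interval reaches 7.40%.

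**Figure D2:**
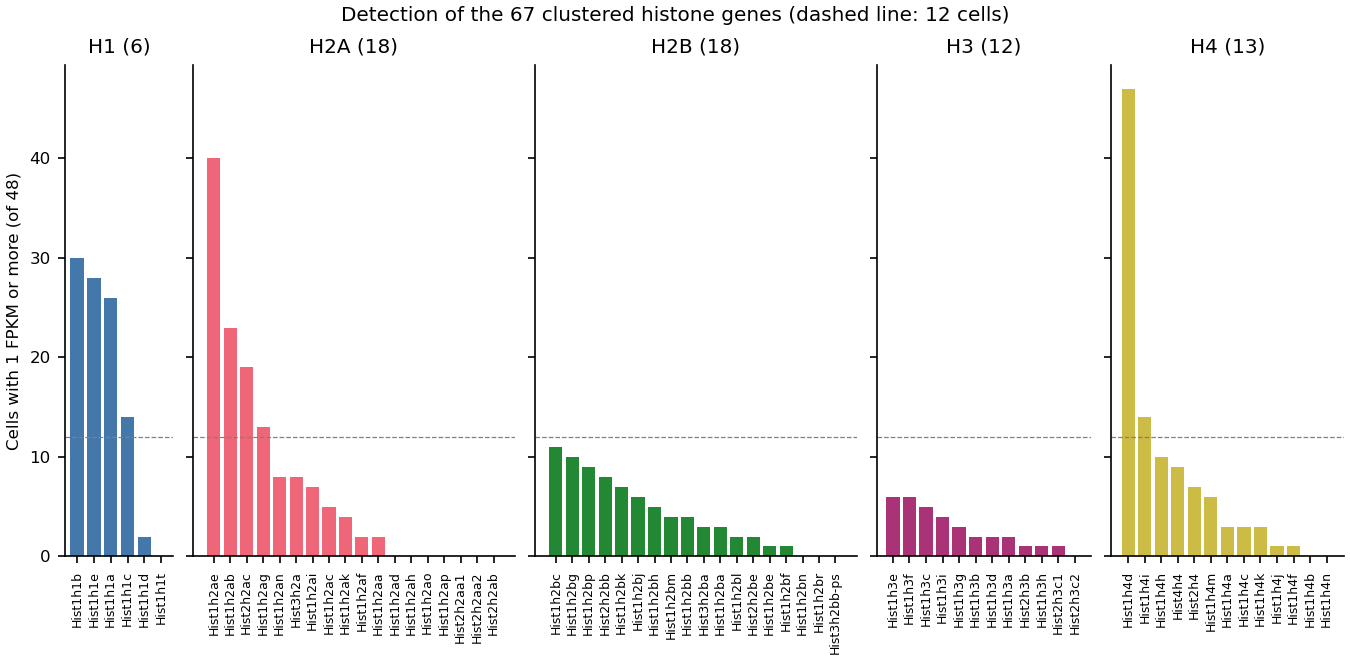
Number of cells, of 48, with 1 FPKM or more for each of the 67 clustered histone genes, in panels by family with the number of genes in brackets; the dashed line marks 12 cells. Bars above the line stand in the H1 (4), H2A (4) and H4 (2) panels and in neither the H2B nor the H3 panel.

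By position, 9 of the 10 widely detected genes lay in the large Hist1 cluster of 53 genes and 1, Hist2h2ac, in Hist2 with 10 genes. None of the 3 Hist3 genes was in at least 12 cells, and the single Hist4 gene, Hist4h4, was in 9 cells, with 1 cell at 44.5 FPKM.

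Annotated transcript structure varied with detection. The stem-loop itself went with little difference, a median of 4 cells for genes with a match and 3 for the 24 without. Among the 43 genes with a stem-loop, 22 have a GENCODE transcript that continues over 100 bases past it. These were detected in a median of 5.5 cells, with 5 in at least 12 cells and 2 in none. The 21 genes whose transcript ends within 100 bases of the stem-loop had a median of 2 cells, with 3 in at least 12 and 7 in none. Where the stretch past the stem-loop holds a poly(A) signal (AATAAA or ATTAAA, 16 genes), the median was 6 cells, and for the other 27 it was 3 cells. In each of these sets 4 genes were in at least 12 cells. Of genes in at least 12 cells, Hist1h4d, Hist1h2ae, Hist1h1c and Hist1h4i have both the longer end and the signal. RefSeq gives these 4 genes lengths of 402, 558, 725 and 403 bases, against 1138, 704, 1560 and 727 bases in GENCODE. The sets by transcript end thus hold for GENCODE alone, were not repeated with RefSeq, and the annotation behind the values is unknown. Hist1h2ab ends 11 bases after its stem-loop and was in 23 cells. Both features also occur in scarcely detected genes, such as Hist1h1d (2 cells), Hist1h2be and Hist1h4j (1 each) and Hist1h1t (0). Hist1h1a and Hist1h1b had no match in their annotated transcripts, which end soon after the coding part. How the cDNA was primed is stated only by reference to the device's manual, and the part it plays in these counts was not tested.

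Sequence shared between genes also moved with detection. The 33 clustered genes with fewer than 50% windows of their own were detected in a median of 2 cells, with 12 in none and 3 in at least 12. The 34 with 50% or more had a median of 5 cells, with 2 in none and 7 in at least 12. This trait is not separate from the transcript end, since windows were counted over the whole GENCODE transcript. It was not recomputed with the lengths of RefSeq. The median transcript length was 463 bases below 50% and 758.5 bases at 50% or more. It was 482 bases for the shorter and 1255 bases for the longer ends. Unshared sequence did not go with wide detection in every gene: with 100% of their windows their own, Hist1h1b and Hist1h1a were in 30 and 26 cells but Hist2h2be in 2 and Hist1h1t in 0. Members that appear on more than 1 row of the table (Hist1h2ao, Hist1h2ap, Hist1h2br, Hist1h4n, Hist2h2aa1 and Hist2h2aa2) were listed at 0 in 6 of 6 cases. Of all 240 symbols on several rows 82.9% were at 0, against 27.8% of those on 1 row. A value of 0 is thus common to most such rows, and the split of reads among near-identical genes is uncertain for clustered members that share windows.

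**Figure D3:**
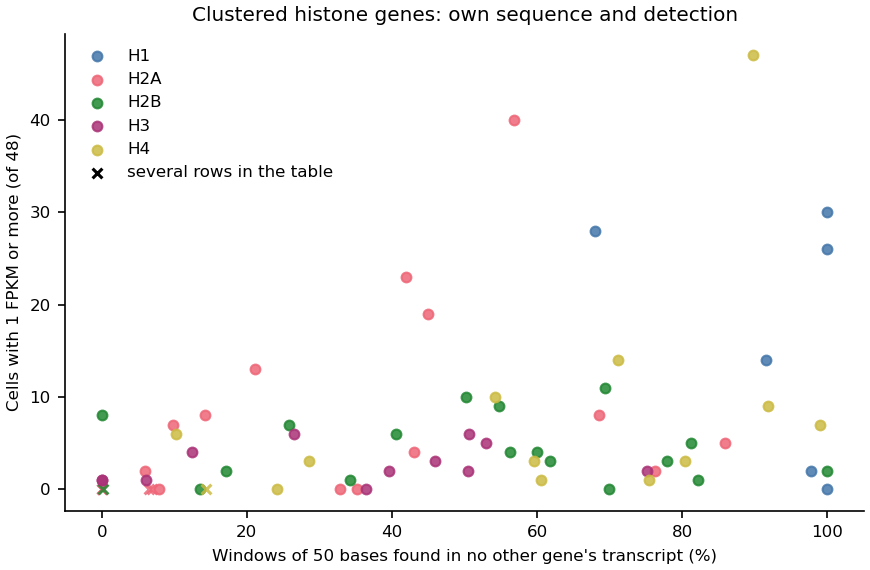
Number of cells with 1 FPKM or more (vertical axis, of 48) against the percentage of windows of 50 bases of the longest annotated transcript that occur in no other gene's transcript (horizontal axis), for 67 clustered histone genes coloured by family; crosses are genes on several rows of the table. All 6 crosses lie at 0 cells, and Hist1h4d stands at 47 cells with 89.8% of its windows unshared.

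H2A and H2B genes often lie head to head. Of 12 such pairs with annotated start sites at most 305 bases apart, Hist1h2ae and Hist1h2bg (chromosome 13, 23571396 to 23572013, plus strand) were the pair seen together in most cells. Hist1h2bg was detected in 10 cells, and Hist1h2ae was detected in each of these 10 and in 30 more. Since Hist1h2ae was in 83.3% of all cells, most of this overlap comes with its own high count. In the other 11 pairs the 2 genes were found together in 0 to 3 cells. The 200 bases upstream of Hist1h2bg, which hold nearly all the space between the pair, are printed with those of Hist1h4d and H2afz, the members with the highest levels of their class. Sequences are from RefSeq (GRCm38.p6), 5′ to 3′ on the strand of the gene, with matches to ATTTGCAT (the octamer of histone promoters), CCAAT and TATAAA on either strand in capitals.
Hist1h2bg, chr13:23571200-23571399, plus strand: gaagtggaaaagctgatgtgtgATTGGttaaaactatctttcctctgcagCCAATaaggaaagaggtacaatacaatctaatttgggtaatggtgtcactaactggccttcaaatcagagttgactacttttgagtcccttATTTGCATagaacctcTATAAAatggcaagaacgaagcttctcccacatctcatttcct
Hist1h4d, chr13:23581368-23581567, plus strand: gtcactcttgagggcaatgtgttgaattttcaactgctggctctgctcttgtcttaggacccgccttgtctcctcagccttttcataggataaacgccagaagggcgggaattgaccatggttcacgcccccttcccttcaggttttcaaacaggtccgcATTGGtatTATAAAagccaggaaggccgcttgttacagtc
H2afz, chr3:137864287-137864486, plus strand: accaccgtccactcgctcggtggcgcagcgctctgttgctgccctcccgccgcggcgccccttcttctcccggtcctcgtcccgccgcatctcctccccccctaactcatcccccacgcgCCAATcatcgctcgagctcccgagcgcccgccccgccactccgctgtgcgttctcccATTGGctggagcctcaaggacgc
The head-to-head promoter holds all 3 motifs, that of Hist1h4d CCAAT and TATAAA, and that of H2afz CCAAT alone. In windows from 250 bases before to 50 after the start, the octamer was found in 7 of 17 H2A and 6 of 15 H2B promoters and in none of the 6 H1, 10 H3 and 12 H4 promoters, against 1.74% of all 32851 promoters. CCAAT was found in all 48 of the H1, H2A, H2B and H3 promoters but in 3 of 12 of H4, against 37.4% of all. TATAAA was in 8 of 12 H4, 11 of 17 H2A, 8 of 15 H2B, 4 of 6 H1 and 4 of 10 H3 promoters, against 13.6% of all. Head-to-head H2A and H2B genes share much of these windows, which were searched on both strands. Their like motif counts are thus partly built in, and no conclusion on detection is drawn from them. Of the H2A genes 4 of 18 reached 12 cells, and of the H2B genes 0 of 18. A match is a description of letters and not a bound site.

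The summed clustered histone level differed widely between cells, with a median of 318 FPKM between 19.8 and 989 FPKM. Without Hist1h4d the median was 76.4 FPKM, between 7.15 and 447 FPKM. The 7 variants together had a median of 4010 FPKM, between 2562 and 6879 FPKM, so the clustered genes made up a median of 8.35% of the histone FPKM measured. Between 1 and 25 clustered genes were detected per cell, with a median of 9. Cell 70 had 25 of them, with 70.2 FPKM of H3 genes, the highest of all cells, and 6 H2B genes. Cell 80 had 20, with 8 H2B genes that summed to 281 FPKM against a median of 4.73 FPKM. The cells with most clustered genes thus differed in family: cell 70 had 6 detected H3 genes and cell 80 had 0. At the other end cell 90 had 1 detected clustered gene and 19.8 FPKM in all, of which 18.5 FPKM were H3. Its H2afz level of 2122 FPKM was inside the range of the other cells. Cell 90 was also 1 of the 7 cells with fewest detected genes, and most of its summed FPKM lay in rows of short RNAs.

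The level of clustered histone mRNA was then set beside Pcna, the sliding clamp of DNA replication, and Top2a, a topoisomerase that is highest in G2 and M phase. Pcna was detected in every cell, with a median of 246 FPKM between 25.96 and 489 FPKM. The median of Top2a was 104 FPKM, between 0.81 and 278 FPKM. Pcna and Top2a were unrelated to each other over the 48 cells (rho = -0.09, r = -0.04, r = -0.01 without the 2 farthest cells). All correlations reported are descriptions over cells of 1 sample, which share a preparation and differ in depth.

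Cells with more clustered histone mRNA tended to have more Pcna and more Top2a. The summed clustered level had rho = 0.39 with Pcna (r = 0.32 on log2(FPKM + 1), n = 48, r = 0.47 without the 2 farthest cells). With Top2a it had rho = 0.44 (r = 0.56, n = 48, r = 0.56 without the 2 farthest). In the 25 cells numbered up to 48 the values of rho were 0.40 and 0.32, and in the 23 others 0.30 and 0.57. The sum did not follow the number of detected genes (rho = -0.03). The 5 cells with the lowest Top2a, at 0.81 to 4.89 FPKM, had clustered sums of 99.5, 124, 52.5, 19.8 and 32.5 FPKM in that order, whereas cell 80, with the highest sum of 989 FPKM and the highest Pcna of 489 FPKM, had 28.4 FPKM of Top2a. Cell 70 combined a sum of 615 FPKM with 42.002 FPKM of Pcna, so the relation was loose. Without Hist1h4d the values were 0.39 with Pcna and 0.34 with Top2a, and in cells numbered up to 48 the latter was 0.10.

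**Figure D4:**
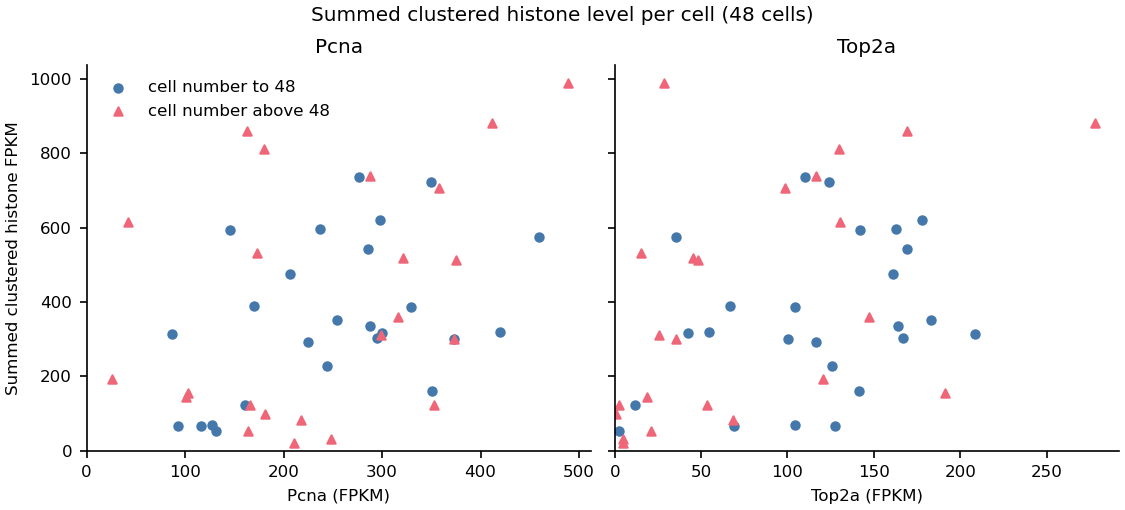
Summed FPKM of the 67 clustered histone genes in each of 48 cells (vertical axis) against Pcna (left) and Top2a (right), both in FPKM; circles are cells numbered up to 48 and triangles cells with higher numbers. Sums run from 19.8 to 989 FPKM and rise loosely along both axes (rho = 0.39 and 0.44), with low sums at the lowest Top2a values.

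The relation was not shared by all families. The H2A sum had rho = 0.54 with Pcna and 0.20 with Top2a, and the H1 sum 0.41 and 0.33. The H2B sum had 0.17 and 0.05, and the H3 sum 0.11 and 0.03, with a median of 1 and 0 detected genes per cell behind them. For H2B the values with Pcna were 0.36 in cells numbered up to 48 and 0.05 in the others, so no steady relation was seen.

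Single genes were examined next. Of the 10 clustered genes detected in at least 12 cells, 3 had rho of 0.3 or more with Pcna (Hist1h2ae 0.39, Hist1h4d 0.35 and Hist1h1a 0.30), against 3.09% of all 8346 symbols. With Top2a 2 of 10 did (Hist1h4d 0.46 and Hist1h1e 0.33), against 3.73% of all. Their median rho was 0.27 with Pcna and 0.22 with Top2a, beside 0.02 and 0.02 over all symbols. Hist1h1b lay just under the mark with Pcna (0.297), and the lowest with Pcna, Hist1h2ag, was at 0.08. Of the 7 variants, 0 had rho of 0.3 or more with either gene, and their medians were 0.13 and 0.008. None of the 17 members had rho of -0.3 or less with Top2a, against 2.01% of all symbols. H2afz had 0.12 with Pcna and -0.04 with Top2a. H2afx ran the other way with Pcna, at rho = -0.30 (r = -0.27, n = 48, r = -0.17 without the 2 farthest cells), 1 of 7 variants at -0.3 or less against 1.31% of all symbols. H2afv and H3f3b reached 0.29 each with Pcna. The difference in rho between clustered genes and variants is a description and was not tested.

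**Figure D5:**
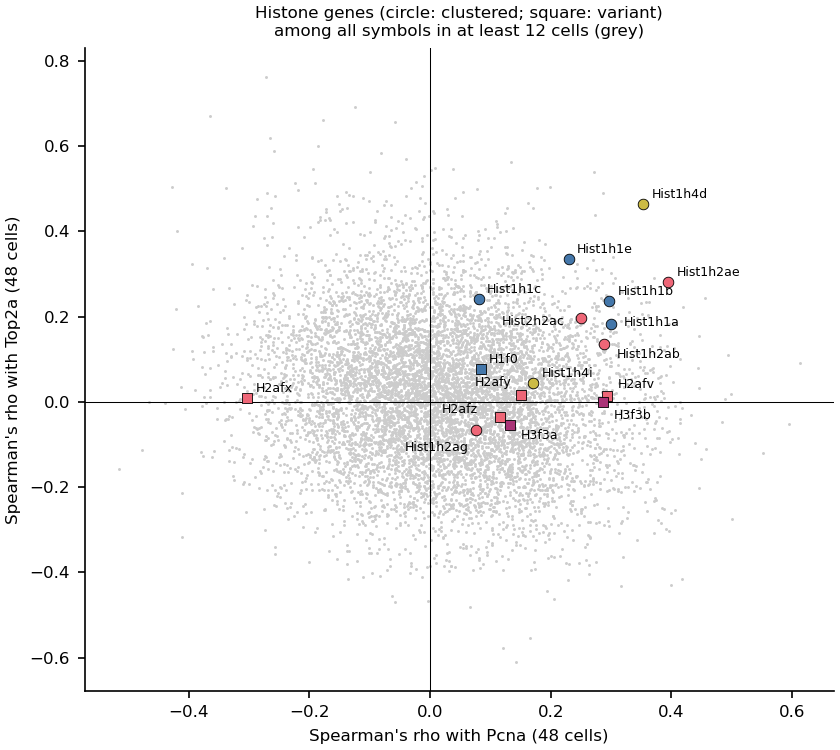
Spearman's rho with Pcna (horizontal) and with Top2a (vertical) over 48 cells for 17 histone genes (circles clustered, squares variants, coloured by family) among the symbols detected in at least 12 cells (grey). Hist1h4d lies highest on the Top2a axis (0.46) and Hist1h2ae farthest right (0.39), while the variants lie near 0 on the Top2a axis and H2afx is at -0.30 with Pcna.

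Scores over wider cell cycle lists were less related to the clustered sum. Scores were means of z-scored log2 values over 25 S phase genes such as Mcm3 and Rrm2, and over 25 G2 and M phase genes such as Birc5 and Ccnb1, neither list holding Pcna, Top2a or a histone. The summed clustered level had rho = 0.07 with the S phase score (r = 0.10, n = 48, r = 0.12 without the 2 farthest cells) and 0.09 with the G2 and M phase score (r = 0.23, r = -0.01 without the 2 farthest). Without Hist1h4d the values were 0.17 and 0.02, and for the G2 and M phase score -0.13 in cells numbered up to 48 and 0.30 in the others. Single list members differed: with the sum without Hist1h4d, S phase genes ran from -0.14 (Mcm7) to 0.44 (Prim1) and G2 and M phase genes from -0.24 (Ccnb2) to 0.37 (Aurkb), with medians of 0.04 and -0.01. The G2 and M phase score moved with the cell number (rho = -0.45), and Top2a did too (rho = -0.33).

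Clustered genes tended to be higher in the same cells. Over the 45 pairs of the 10 genes in at least 12 cells the median rho was 0.22, with 43 above 0 and 2 below, the lowest being Hist1h1e with Hist1h4i at -0.13. The same count was not made over pairs of all symbols. Some of these genes share windows, such as Hist1h2ab with Hist1h2ae and Hist1h4d with Hist1h4i, so their values are not fully separate measurements. Hist1h4d had rho = 0.72 with the sum of all other clustered genes. The highest rho among the members was 0.61 for Hist1h1a with Hist1h2ae (r = 0.55, n = 48, r = 0.55 without the 2 farthest cells), followed by 0.58 for Hist1h1b with Hist1h4d (r = 0.52, r = 0.50) and 0.53 for Hist1h2ae with Hist1h4d (r = 0.57, r = 0.59). Within the cells numbered up to 48 these were 0.62, 0.30 and 0.41, and within the others 0.61, 0.78 and 0.62. Hist1h1b and Hist1h2ae were also, with Srp72, the 3 most like Hist1h4d of 8346 symbols. Among variants the closest pair was H2afz with H3f3b, at 0.44.

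Of all symbols outside the clusters, Srp72, a subunit of the signal recognition particle, was most like the summed clustered level (rho = 0.55 over 48 cells), followed by Ppp2r2a (0.52), Nup85 (0.49), 2310039L15Rik (0.49) and Aurkb (0.48), the mitotic kinase that phosphorylates H3. The ranking rests in part on Hist1h4d: without it the sum was most like Sdccag3 (0.52) and 2810417H13Rik (0.52), Srp72 was at rank 7 (0.45) and Aurkb had 0.37. Those most like H2afz were Hmgb1 (0.66), Ssb (0.65), Hmgb1-rs17 (0.61), Ppp2r5c (0.60) and Hmgn2 (0.59), of which Hmgb1 and Hmgn2 encode abundant chromatin proteins. The 2 sets of 5 had no symbol in common, but sets of 5 out of 8337 and 8346 ranked symbols would rarely overlap. No contrast is drawn from this.

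Genes that make and process histone mRNA were widely detected in the same cells: 9 of 11 reached 12 cells, against 35.8% of all symbols. Slbp, the stem-loop binding protein, was in 47 cells (0 to 396 FPKM, median 93.1), Casp8ap2 (FLASH) in 47 (median 13.6 FPKM), Cpsf3, the endonuclease, in 45 (median 80.1 FPKM) and Cpsf2 in 44 (median 15.8 FPKM). Npat, which activates the clusters, was in 35 cells with a median of 3.08 FPKM. Lsm11 of the U7 snRNP was in fewest, 7 cells. Of this list 1 of 9 genes had rho of 0.3 or more with Pcna (Casp8ap2, 0.46), against 3.09% of all symbols. With Top2a 0 of 9 did, against 3.73% of all symbols, so the count of 0 is near that share. With the clustered sum without Hist1h4d they ran from -0.24 (Cpsf3) to 0.36 (Sympk), with a median of 0.02 beside -0.02 over all symbols. Slbp had 0.31.

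Histone chaperones and exchange factors were also widely detected, with 23 of 23 genes found in the table in at least 12 cells, against 35.8% of all symbols. Npm1 had a median of 3297 FPKM, Set 1639 FPKM, Nap1l1 374 FPKM and Nasp, a carrier of H3 and H4, 221 FPKM, each in all 48 cells. Ubn1, of the H3.3 deposition complex around Hira, was in fewest, 17 cells. With Pcna 6 of 23 had rho of 0.3 or more, against 3.09% of all symbols. Factors of replication-coupled assembly were not alike: Asf1b had 0.42, Rbbp4 0.40 and Chaf1b 0.31, but Chaf1a 0.20, Mcm2 0.18 and Asf1a -0.12. With the clustered sum without Hist1h4d the list ran from -0.24 (Asf1a) to 0.41 (Chaf1b), with a median of 0.06. With H2afz the list ran from -0.18 (Daxx) to 0.43 (Set). Anp32e, which removes H2A.Z from chromatin, had 0.31 with H2afz, but Znhit1 had 0.27, Vps72 0.05 and Ep400 -0.08. The share of all symbols at 0.3 or more with H2afz was not computed.

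Among 8 other variant genes, 4 were in at least 12 cells, against 35.8% of all symbols. Cenpa, the centromeric H3, was in 45 cells with a median of 70.8 FPKM, H2afy2 in 37 (8.96 FPKM), H2afj in 31 (2.13 FPKM) and H1fx in 21 (0 FPKM). H1fnt and H2afb1, genes of male germ cells, were listed at 0. Cenpa had rho = -0.26 with Pcna and 0.09 with Top2a.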

How the data were processed

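Single-cell RNA-seq values were taken from 1 table deposited by the authors, with 23746 rows and a column for each of 48 cells. Its unit is not named. The values are treated as FPKM, because Cufflinks 2.2.1.0 is named, with CASAVA 1.8.2, TopHat 0.7 and build mm10, per the submitters' processing notes, without roles. The sources used here do not give the annotation, the read filters or the depth of any cell, so levels carry no interval. Intervals of 95% (exact, Clopper-Pearson) were given for shares of cells and cover counting error. The authors' FPKM were used without rescaling, and rows of a symbol were summed.

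Detection meant 1 FPKM or more. Spearman's rho used FPKM and Pearson's r used log2(FPKM + 1), over 48 cells, for symbols in at least 12 cells. The 2 farthest cells were those farthest from the median of the second quantity named: Pcna, Top2a, a score or the cell number. In pairs of members they were those farthest on the first gene. Outside such pairs an extreme histone value was not a reason to leave a cell out. For H4, H3, H2B, H2A and H1 sums all clustered members entered. Gene positions, transcripts and windows came from GENCODE M21 and promoters from RefSeq, in which 73 of 74 members matched 1 gene. The rule takes members by symbol, but that rule and the gene lists were chosen with earlier results of these data known. Named were all variants, clustered genes in at least 12 cells, the gene in most cells and the one with the largest maximum of each family, Pcna, Top2a, 5 symbols most like the clustered sum and 5 most like H2afz, and of each list up to 4 genes in most cells and the one in fewest. Further genes, such as those at 0, cells 70, 80 and 90, Npat, Asf1b, Rbbp4, Chaf1b, Sympk, Prim1 and Anp32e, were named after their values were seen. Correlation code was tested on simulated data. Python 3.11.15, numpy 2.4.6, pandas 2.3.3 and scipy 1.17.1 were used. No doublets could be called without counts. Alternatives were the threshold, the pseudocount, the scaling, the few-gene cells, the row kept, and the cell number.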

Additional observations from a re-analysis of the deposited data

How the results depend on the processing

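At 10 FPKM the clustered genes detected in at least 25% of the cells fell to 3 and the median per cell to 3. At 0.1 FPKM they were 13 and 11, and with each cell scaled to one total without short RNA rows 11 and 9. The median clustered sum was 340 FPKM after that scaling, and 76.4 FPKM without Hist1h4d. The rho of the clustered sum with Top2a, 0.44 over all cells, was 0.32 without the 7 cells with fewest detected genes (over 3 median absolute deviations below the median), 0.32 in cells numbered up to 48, 0.57 in the others and 0.34 without Hist1h4d; the cause was not tested. With Pcna it stayed between 0.30 and 0.41 under the settings run. Without cells 70 and 80, a setting chosen after the data were seen, the values were 0.41 with Pcna and 0.49 with Top2a. The median rho over the 17 members moved by less than 0.1 in each setting. No relation recomputed here with rho of 0.3 or more over all cells changed its sign. Values near 0 did: H2B with Top2a, 0.05, was -0.12 in cells numbered up to 48 and -0.02 without the few-gene cells, and H2afz with Top2a, -0.04, was 0.02 after the scaling. At 10 FPKM the number of cells of 9 of the 17 named members fell by over 1.5 times, among them H1f0 (39 to 23 cells) and Hist1h2ae (40 to 23 cells), and at 0.1 FPKM Hist1h1c rose from 14 to 24. A pseudocount of 0.1 moved no Pearson's r of a named member by 0.1 or more. No paired analysis was possible because the cells form 1 group. Low genes cannot be told from undetected ones at an unknown depth.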
